A study of Mus musculus with 6 samples.

Results

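The 10 genes described here mark hematopoietic stem cells: Slamf1, Mecom, Procr, Hlf, Mllt3, Fgd5, Cd34, Cd48, Esam and Robo4. They were taken by symbol from the mouse annotation GENCODE vM21 (GRCm38), and all 10 were found among the 46078 genes counted in each library. Total RNA of 6 mouse libraries was sequenced after ribosomal RNA depletion with a stranded kit, 3 libraries labelled JMML and 3 labelled WT. JMML stands for juvenile myelomonocytic leukemia, a leukemia of early childhood with excess monocytic and granulocytic cells, and the title of the series speaks of a mouse model with sustained fetal blood formation. The labels give JMML and wild type as the only genotypes and name no altered gene, driver, strain, age or tissue. Levels are CPM, counts relative to the TMM-scaled size of the library, and fold changes are those of edgeR's quasi-likelihood test on all 18097 genes that passed its low-count filter, adjusted by Benjamini-Hochberg and called under 0.05. All 10 members passed the filter.

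Hematopoietic stem cells renew themselves and give rise to every blood lineage, and they are rare in any blood-forming tissue. They are recognised by surface proteins, in particular by the SLAM code, in which a stem cell carries CD150, the product of Slamf1, and lacks CD48. Mecom, Hlf and Mllt3 encode nuclear regulators of stem cell self-renewal, and Procr, Esam, Robo4, Fgd5 and Cd34 encode proteins that stem cells share with the endothelium of blood vessels. Slamf1 is also a gene of lymphocytes, Cd48 is carried by most leukocytes, and Hlf is also active in liver. In bulk RNA, fewer cells of a type and less RNA per cell cannot be told apart.

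Of the 10 members, 7 were lower in JMML, namely Slamf1, Robo4, Esam, Fgd5, Mecom, Hlf and Mllt3, and 1 was higher, Cd48. Cd34 and Procr did not pass the test. Of all tested genes, 13.8% were called lower and 12.4% higher, 26.2% in either direction. The groups of libraries did not overlap for 8 of the 10 members, which are the same 8 that were called, against 47.5% of all tested genes (24.6% lower and 22.9% higher in JMML). The median log2 fold change was −1.51 over the 10 members and −0.02 over all tested genes.

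Libraries held between 91976512 and 108395459 counts in JMML and between 47096464 and 61656272 in WT. JMML replicates 1 and 2 have identifiers ending in F, 0 counts of 4 Y-linked genes and at least 49961 counts of Xist, the transcript of the inactive X chromosome. The other 4 libraries end in M and had at most 36 counts of Xist, so the sex of the libraries and the group cannot be told apart fully, JMML replicate 3 being the only JMML library of its letter. JMML replicate 3 and WT replicate 3 share the first part of their identifier, whose meaning the labels do not give. Whether the replicates came from separate animals is not stated, and p-values here describe only the spread among these 6 libraries.

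**Figure D1:**
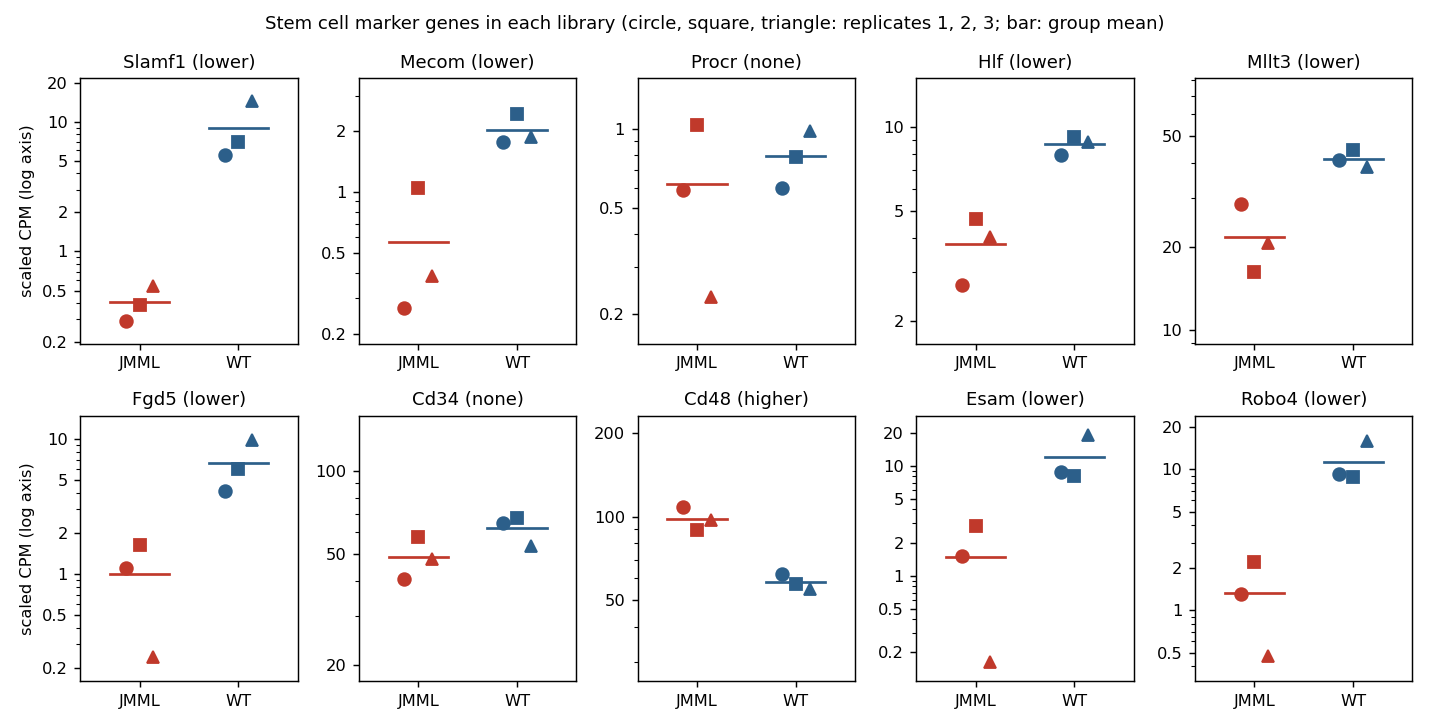
Scaled CPM of each member (y axes, log scale, 1 panel per gene) in the 3 JMML libraries (red) and the 3 WT libraries (blue), with symbols for replicates and a bar for the group mean; the word after the gene is its edgeR call. The groups do not overlap in 8 panels, and in Esam, Fgd5 and Robo4 the triangle of JMML replicate 3 lies far below the other JMML libraries.

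The SLAM pair gave the widest contrast among the members. Slamf1 (ENSMUSG00000015316, chromosome 1, 171767127 to 171801184, plus strand) and Cd48 (ENSMUSG00000015355, chromosome 1, 171682009 to 171705258, plus strand) lie in the same cluster of SLAM family genes, with the Cd48 start at −85.1 kb from that of Slamf1, and they moved in opposite directions. The 250 bases before each RefSeq start (GRCm38.p6, plus strand, chr1:171766882-171767131 for Slamf1 and chr1:171681742-171681991 for Cd48) are shown because these neighbours diverge. Capitals mark GGAA, the core bound by ETS factors, and TGTGGT, a RUNX site, on either strand, and these marks do not overlap one another.
Slamf1: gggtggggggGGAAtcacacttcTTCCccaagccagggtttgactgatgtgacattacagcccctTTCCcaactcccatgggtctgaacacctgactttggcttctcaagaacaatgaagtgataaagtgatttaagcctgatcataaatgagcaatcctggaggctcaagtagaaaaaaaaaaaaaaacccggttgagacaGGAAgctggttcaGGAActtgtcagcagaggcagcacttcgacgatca
Cd48: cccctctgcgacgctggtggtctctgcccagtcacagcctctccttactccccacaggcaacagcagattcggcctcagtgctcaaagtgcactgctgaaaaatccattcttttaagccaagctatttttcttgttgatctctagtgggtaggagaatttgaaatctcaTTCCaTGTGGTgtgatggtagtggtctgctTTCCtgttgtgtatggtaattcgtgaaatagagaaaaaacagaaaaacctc

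The Slamf1 window holds 5 GGAA cores and no TGTGGT, and the Cd48 window holds 2 GGAA cores and 1 TGTGGT. Windows were found for 9 of the 10 members, 11 windows in all because Mecom and Mllt3 have 2 starts each, and Esam had none. GGAA occurred in 10 of the 11, against 93.4% of 32851 windows of the same length before all RefSeq starts, and TGTGGT in 1, against 14%. The GATA letters AGATAA, searched on both strands, occurred in 0 of the 11, against 10% of all. These matches describe letters in a short window only.

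Slamf1 encodes CD150, a self-binding receptor of the SLAM family. Slamf1 received 24, 41 and 49 counts in JMML replicates 1, 2 and 3, against 361, 362 and 835 counts in WT replicates 1, 2 and 3, although the JMML libraries were deeper. Scaled, that is 0.293, 0.390 and 0.539 CPM in JMML, against 5.55, 6.93 and 14.4 CPM in WT. Every JMML library lay far below the lowest WT library, and WT replicate 3 stood above the other WT libraries. The log2 fold change was −4.45 ± 0.46 (SE), 21.9-fold lower in JMML (edgeR adjusted p = 0.00247), and only 0.7% of all tested genes had a log2 fold change as low or lower. The call held in all 17 alternative settings, at values between −4.68 and −3.89.

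Cd48 encodes a glycolipid-anchored SLAM family protein that binds CD244 and CD2. Its level was 108, 89.8 and 97.3 CPM in JMML replicates 1, 2 and 3, against 62.0, 57.1 and 54.6 CPM in WT replicates 1, 2 and 3. The groups stood clearly apart with little spread inside each. The log2 fold change was 0.76 ± 0.11 (SE), 1.70-fold higher in JMML (edgeR adjusted p = 0.0049), and the call held in all 17 alternative settings, the lowest value being 0.51 with the trend in exon length removed.

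Within each library, the number of Cd48 counts for every Slamf1 count was 369, 230 and 181 in JMML replicates 1, 2 and 3, against 11.2, 8.24 and 3.81 in WT replicates 1, 2 and 3. These ratios need no scaling between libraries. On the log2 scale Slamf1 minus Cd48 averaged −7.96 ± 0.52 in JMML and −2.82 ± 0.80 in WT (SD, n = 3 each), a difference of −5.14. An exact two-sided permutation test gave p = 0.1, the smallest value that 3 libraries against 3 allow, so the 0.05 threshold was out of reach.

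The other genes of the cluster did not move as a block. Slamf6, a SLAM receptor of T and B cells that starts 150.4 kb beyond the Slamf1 start, was also lower, at 2.19, 1.66 and 1.96 CPM in JMML replicates 1, 2 and 3, against 9.67, 12.8 and 26.2 CPM in WT replicates 1, 2 and 3 (log2 fold change −3.06 ± 0.39 SE, edgeR adjusted p = 0.00365). Cd84, which lies between Slamf1 and Slamf6, did not pass the test (0.32 ± 0.19 SE, edgeR adjusted p = 0.234). On the far side of Cd48, Slamf7 (0.21 ± 0.33 SE) and Ly9 (0.54 ± 0.17 SE) did not pass it either, and Cd244a, the receptor that binds CD48, was higher (1.17 ± 0.26 SE, edgeR adjusted p = 0.0185). Ly9 lies within the span of Cd244a on the opposite strand, and with the strand setting of the counting not given, their reads may not be fully separated. Across the list of 10 matched SLAM receptors, ligands and adaptors other than the 2 members, 3 were lower and 3 were higher, beside 13.8% and 12.4% of all tested genes. Among these the adaptor gene Sh2d1b1 (1.85 ± 0.24 SE) and the myeloid receptor gene Slamf8 (1.88 ± 0.35 SE) were higher, and Cd2, the T-cell counterpart that also binds CD48, was lower (−2.10 ± 0.25 SE).

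**Figure D2:**
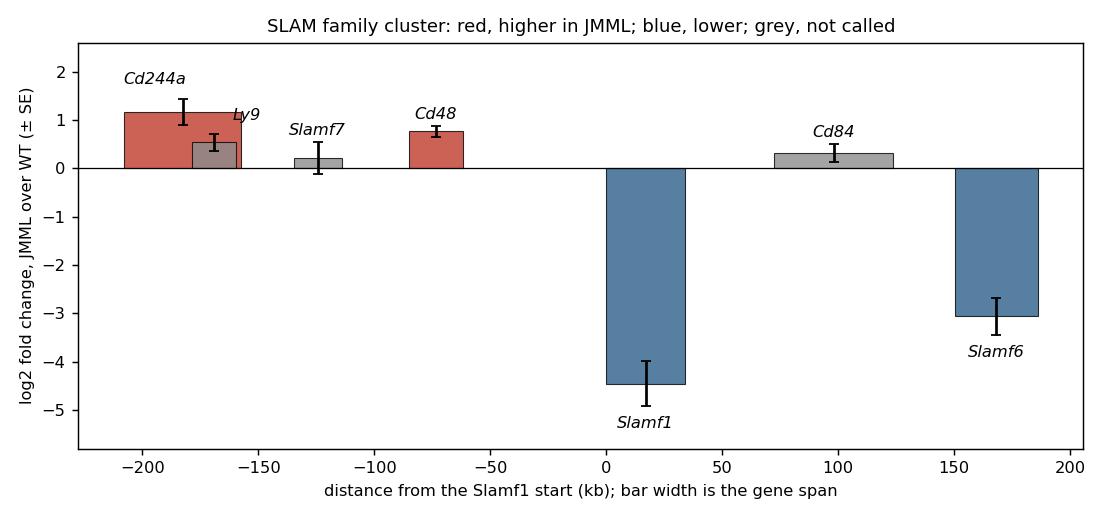
Log2 fold change of JMML over WT (y axis, bars, with ± 1 SE from edgeR) for the 7 SLAM family genes of the cluster, placed by distance from the Slamf1 start in kb (x axis; bar width is the gene span, and Ly9 is drawn inside Cd244a). Slamf1 and Slamf6 point down at −4.45 and −3.06 on either side of Cd84, whereas Cd48 and Cd244a point up at 0.76 and 1.17.

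Because Slamf1 is also expressed by lymphocytes and megakaryocyte progenitors, markers of these lineages are set beside it. All 10 B-cell markers were lower in JMML, with summed levels of 10.4 to 17.4 CPM in JMML, against 139 to 547 CPM in WT. All 10 T-cell markers were lower, summing to 16.2 to 26.0 CPM in JMML, against 71.1 to 94.4 CPM in WT, and all 12 megakaryocyte markers were lower, summing to 57.8 to 77.8 CPM in JMML, against 394 to 1219 CPM in WT. Of all tested genes, 13.8% were called lower. WT replicate 3 was the highest WT library for Slamf1, for the B-cell sum and for the megakaryocyte sum. The part of these lineages in the Slamf1 result was not tested. The ratio of Slamf1 to the B-cell factor Pax5 was 1.41, 0.891 and 0.778 in JMML replicates 1, 2 and 3, against 0.216, 0.293 and 0.149 in WT replicates 1, 2 and 3, and the ratio to the T-cell kinase gene Lck was 0.110, 0.0782 and 0.0772 in JMML, against 0.374, 0.470 and 1.03 in WT. Slamf1 was thus reduced less than Pax5 and more than Lck. The ratio to the megakaryocyte integrin gene Itga2b was 0.0204, 0.0287 and 0.0729 in JMML replicates 1, 2 and 3, against 0.0660, 0.111 and 0.0857 in WT replicates 1, 2 and 3, and these overlapped. The ratios to B-cell and megakaryocyte markers depend on the marker chosen. Unlike Pax5, the B-cell marker Cd79b fell less than Slamf1, at log2 fold changes of −2.04 and −4.45. Unlike Itga2b (−3.15), the megakaryocyte marker Ppbp fell more (−6.59).

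Among 10241 eligible protein-coding genes, those with the profile over the 6 libraries closest to that of Slamf1 were Lef1, Akap12, Esm1, Bach2 and Gnaz. Closeness was the root mean square difference of centred log2 CPM, which was 0.27 for Lef1 and 0.48 for Gnaz. Lef1 had 0.683, 1.04 and 0.835 CPM in JMML replicates 1, 2 and 3, against 9.75, 13.9 and 24.7 CPM in WT replicates 1, 2 and 3. The closest to Cd48 was Tmem126a at 0.04, followed by Tmem165, Sptssa, Tradd and Sar1b.

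The 3 nuclear regulators were all lower in JMML, by less than Slamf1. Mecom (ENSMUSG00000027684, chromosome 3, 29951296 to 30548008, minus strand) encodes the zinc finger factor EVI1 and its longer PR-domain form, needed for stem cell maintenance. It had 0.268, 1.05 and 0.385 CPM in JMML replicates 1, 2 and 3, against 1.77, 2.43 and 1.87 CPM in WT replicates 1, 2 and 3. These rest on 22, 111 and 35 counts in JMML and 115, 127 and 109 in WT. JMML replicate 2 stood above the other JMML libraries and still lay below every WT library. For Mecom the log2 fold change was −1.82 ± 0.52 (SE, edgeR adjusted p = 0.0405), close to the threshold. The call ended in 7 of 17 alternative settings, which include leaving out JMML replicate 1 (−1.47), JMML replicate 3 (−1.57) and any single WT replicate, with the direction kept in all 17. The call also ended with the identifier letter as a covariate (−2.39) and with the trend in exon length removed (−1.53). The log2 fold change was −2.61 without JMML replicate 2 and −2.35 with the M libraries alone.

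Hlf (ENSMUSG00000003949, chromosome 11, 90336536 to 90390895, minus strand) encodes a transcription factor of the PAR bZIP family that marks stem cells among blood cells. It had 2.69, 4.68 and 4.02 CPM in JMML replicates 1, 2 and 3, against 7.93, 9.25 and 8.87 CPM in WT replicates 1, 2 and 3. Levels in WT were tight and every JMML library lay well below them. Hlf had a log2 fold change of −1.19 ± 0.24 (SE), 2.28-fold lower in JMML (edgeR adjusted p = 0.0133). The call ended with the identifier letter as a covariate (−1.11) and without WT replicate 2 (−1.14). Hepatocyte markers were at or near 0 in all libraries, with summed levels of 0.143 to 0.439 CPM in JMML and 0.108 to 0.728 CPM in WT over 8 markers, and Alb and Serpina1a had 0 counts in all 6.

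Mllt3 (ENSMUSG00000028496, chromosome 4, 87769925 to 88033364, minus strand) encodes AF9, a subunit of transcription elongation complexes that recruits the histone methyltransferase Dot1l. It had 28.5, 16.2 and 20.6 CPM in JMML replicates 1, 2 and 3, against 41.1, 44.7 and 38.7 CPM in WT replicates 1, 2 and 3. The order of the JMML libraries differed from that of Hlf and Mecom, since replicate 1 was highest for Mllt3 and lowest for both of the others. Mllt3 had a log2 fold change of −0.93 ± 0.21 (SE), 1.91-fold lower in JMML (edgeR adjusted p = 0.0186). Mllt3 has a summed exon length of 12004 bases, and with the trend in exon length removed the value became −0.62 and the call ended; it also ended with the identifier letter as a covariate (−1.01) and without WT replicate 1 (−0.89) or WT replicate 2 (−0.88).

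Relatives and partners of these regulators went both ways. Of the other PAR bZIP genes, Dbp (−0.91 ± 0.21 SE) and Tef (−0.68 ± 0.20 SE) were lower in JMML, and Nfil3, a repressor that binds the same sites, was higher (1.19 ± 0.20 SE). Dot1l had 32.3, 48.7 and 38.7 CPM in JMML replicates 1, 2 and 3, against 105, 97.1 and 73.9 CPM in WT replicates 1, 2 and 3, and was lower (−1.21 ± 0.19 SE, edgeR adjusted p = 0.00648). Mllt1, the paralog of Mllt3, did not pass the test (−0.14 ± 0.14 SE), and neither did Prdm16, the closest relative of Mecom (−0.61 ± 0.30 SE). In the list of 31 partners and relatives of the members, 6 were lower and 7 were higher, beside 13.8% and 12.4% of all tested genes.

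Of the members shared with endothelium, 3 fell, and inside JMML these 3 and Procr were each highest in replicate 2 and lowest in replicate 3. Robo4 (ENSMUSG00000032125, chromosome 9, 37401897 to 37415115, plus strand), the endothelial member of the Roundabout receptors, helps to hold stem cells in the bone marrow niche in mice. It had 1.30, 2.20 and 0.473 CPM in JMML replicates 1, 2 and 3, against 9.18, 8.85 and 15.9 CPM in WT replicates 1, 2 and 3. Every JMML library lay below every WT library, and the log2 fold change was −3.09 ± 0.55 (SE), 8.49-fold lower in JMML (edgeR adjusted p = 0.00878). The call held in all 17 alternative settings, at values between −4.58 with the identifier letter as a covariate and −2.66 without JMML replicate 3, and at −4.54 with the M libraries alone.

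Esam (ENSMUSG00000001946, chromosome 9, 37528078 to 37538319, plus strand) encodes an adhesion molecule of endothelial junctions, platelets and stem cells. It had 1.5, 2.80 and 0.165 CPM in JMML replicates 1, 2 and 3, against 8.69, 7.99 and 19.0 CPM in WT replicates 1, 2 and 3. The JMML libraries spanned a 17.0-fold range, the widest of the 10 members, and replicate 3 had only 15 counts. Esam had a log2 fold change of −2.99 ± 0.85 (SE), 7.95-fold lower in JMML (edgeR adjusted p = 0.0393). The call ended without JMML replicate 1 (−2.98) and without any single WT replicate (−3.14, −3.23 and −2.45 without WT replicates 1, 2 and 3), and with the 4 M libraries alone the value was −6.12.

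Fgd5 (ENSMUSG00000034037, chromosome 6, 91978878 to 92076004, plus strand) encodes an exchange factor for the small GTPase Cdc42 and is used in mice as a reporter locus for stem cells. It had 1.11, 1.63 and 0.242 CPM in JMML replicates 1, 2 and 3, against 4.12, 6.01 and 9.88 CPM in WT replicates 1, 2 and 3. Fgd5 had a log2 fold change of −2.74 ± 0.66 (SE), 6.70-fold lower in JMML (edgeR adjusted p = 0.0229). The call ended when JMML replicate 1 (−2.81) was left out, and likewise for WT replicate 2 (−2.83) and WT replicate 3 (−2.31), and with the 4 M libraries alone the value was −4.74. Other members of its family went the other way, since Fgd2 (1.26 ± 0.14 SE), Fgd3 (0.54 ± 0.15 SE) and Fgd4 (0.61 ± 0.15 SE) were higher in JMML, as was Cdc42 itself (0.66 ± 0.11 SE).

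Robo4 and Esam lie 113 kb apart on chromosome 9. Between them, Robo3 was lower (−2.61 ± 0.75 SE, edgeR adjusted p = 0.0411) and Msantd2 did not pass the test (−0.15 ± 0.14 SE). Robo3 had only 23, 63 and 5 counts in JMML replicates 1, 2 and 3. On the other side of Robo4, Ccdc15 was lower (−0.84 ± 0.14 SE, edgeR adjusted p = 0.00789). Directly beyond Esam, Vsig2 (−3.01 ± 0.85 SE) and Nrgn (−2.04 ± 0.33 SE) were lower as well, Vsig2 at a mean of only 0.0605 CPM in JMML and 0.513 CPM in WT.

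The order of these 3 genes over the JMML libraries, with replicate 2 highest and replicate 3 lowest, was also that of Cdh5 and of the summed endothelial markers. It was not that of every endothelial marker, since Pecam1, Flt1, Egfl7, Sox17, Lyve1, Eng and Ramp2 differed. Pecam1 was highest in JMML replicate 3 (34.4 CPM) and Flt1 in JMML replicate 1 (33.1 CPM). Cdh5, the cadherin of endothelial junctions, had 6.67, 10.8 and 3.4 CPM in JMML replicates 1, 2 and 3, against 25.8, 30.2 and 54.4 CPM in WT replicates 1, 2 and 3. Of 17 endothelial markers, 10 were lower in JMML and 7 did not pass, beside 13.8% of all tested genes called lower. Among those that did not pass, Flt1 (0.22 ± 0.47 SE) and Lyve1 (0.09 ± 0.52 SE) had values above 0. The summed levels of the endothelial markers were 88.5 to 176 CPM in JMML, against 385 to 651 CPM in WT. Relative to Cdh5, Robo4 stood at 0.196, 0.204 and 0.139 in JMML replicates 1, 2 and 3, against 0.356, 0.293 and 0.292 in WT replicates 1, 2 and 3. For Fgd5 the same ratio was 0.166, 0.151 and 0.0712 in JMML, against 0.160, 0.199 and 0.182 in WT, and these overlap. For Mecom it was 0.0402, 0.0977 and 0.113 in JMML, against 0.0686, 0.0806 and 0.0345 in WT, which overlap as well. For Esam it was 0.225, 0.260 and 0.0485 in JMML, against 0.337, 0.265 and 0.349 in WT. For Kdr, an endothelial receptor for VEGF that is no member, it was 0.920, 0.793 and 0.557 in JMML, against 1.47, 1.72 and 1.37 in WT, so a lower ratio was not particular to Robo4 and Esam. Nor was it general among endothelial markers. For Tie1 it was 0.605, 0.627 and 0.343 in JMML, against 0.442, 0.421 and 0.492 in WT. For Plvap it was 0.779, 0.545 and 0.382 in JMML, against 0.723, 0.716 and 0.654 in WT, and for both genes the groups overlapped. Of 9 stromal markers, 4 were also lower in JMML, beside 13.8% of all tested genes. These were Cxcl12 (−3.37 ± 0.56 SE), Kitl (−2.62 ± 0.53 SE), Lepr (−2.37 ± 0.59 SE) and Pdgfrb (−1.21 ± 0.33 SE), each lowest in JMML replicate 3. The stromal markers together summed to 952 to 1433 CPM in JMML, against 773 to 2617 CPM in WT. Most of each sum was Col1a1, so the sums say little about the other stromal markers. Col1a1 had 1304, 1365 and 923 CPM in JMML replicates 1, 2 and 3, against 549, 830 and 2151.5 CPM in WT replicates 1, 2 and 3. The part of endothelial and stromal RNA in these results was not tested further.

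**Figure D3:**
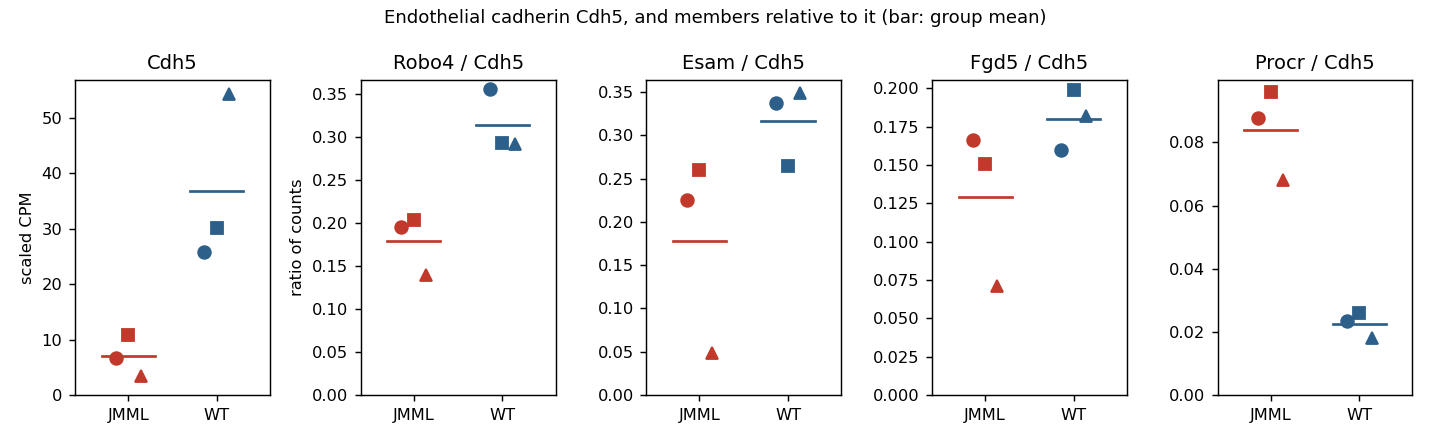
Scaled CPM of Cdh5 (left panel) and the ratio of Robo4, Esam, Fgd5 and Procr to Cdh5 (other panels, linear axes from 0) in the JMML libraries (red) and the WT libraries (blue), with symbols for replicates 1, 2 and 3 and a bar for the group mean. The Fgd5 ratios overlap between groups, those of Robo4 and Esam are lower in JMML, and those of Procr are higher in all 3 JMML libraries.

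Procr (ENSMUSG00000027611, chromosome 2, 155751117 to 155755471, plus strand) encodes the endothelial protein C receptor, an anticoagulant receptor used to sort stem cells. It had 0.585, 1.04 and 0.231 CPM in JMML replicates 1, 2 and 3, against 0.600, 0.785 and 0.980 CPM in WT replicates 1, 2 and 3. The groups overlapped, with JMML replicate 2 above and JMML replicates 1 and 3 below every WT library, replicate 1 only just. The log2 fold change was −0.35 ± 0.54 (SE, edgeR adjusted p = 0.664), and it was 0.07 without JMML replicate 3, −0.93 without JMML replicate 2, −1.76 with the identifier letter as a covariate and −1.72 with the M libraries alone, passing the test in none of these. The counts were 48, 109 and 21 in JMML replicates 1, 2 and 3, against 39, 41 and 57 in WT replicates 1, 2 and 3, and the coefficient of variation was 65.4% in JMML and 24.1% in WT. Unlike Robo4, Esam and Fgd5, its ratio to Cdh5 was higher in JMML, at 0.0878, 0.0960 and 0.0680 in JMML replicates 1, 2 and 3, against 0.0233, 0.0260 and 0.0180 in WT replicates 1, 2 and 3. Of its partners, Thbd, the gene of thrombomodulin, did not pass the test (−0.67 ± 0.27 SE), and the thrombin receptor gene F2r was lower (−1.40 ± 0.20 SE, edgeR adjusted p = 0.00463).

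Cd34 (ENSMUSG00000016494, chromosome 1, 194938819 to 194961279, plus strand) encodes a sialomucin of progenitors, endothelium and mast cells, and in adult mice it is low on the most primitive stem cells and higher on progenitors. It had 40.8, 57.6 and 48.2 CPM in JMML replicates 1, 2 and 3, against 64.9, 67.6 and 53.7 CPM in WT replicates 1, 2 and 3. JMML replicate 2 lay above WT replicate 3, so the groups overlapped. The log2 fold change was −0.34 ± 0.16 (SE, edgeR adjusted p = 0.146), and no alternative setting called it. The profiles closest to Cd34 over the 6 libraries were those of Adi1 and Med1, each at a root mean square difference of 0.04 in log2 CPM, then Slco3a1, Pde4a and Foxk1. Mast cell and basophil markers, read because Cd34 is also a mast cell gene, summed to 65.7 to 109 CPM in JMML, against 169 to 250 CPM in WT. Prss34 was the largest of them in WT, at a mean of 90.1 CPM, against 23.2 CPM in JMML. Cpa3 did not pass the test (−0.52 ± 0.28 SE), and Tpsb2 and Cma1 were at or near 0 in all libraries. The sums thus do not separate mast cells from basophils.

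**Figure D4:**
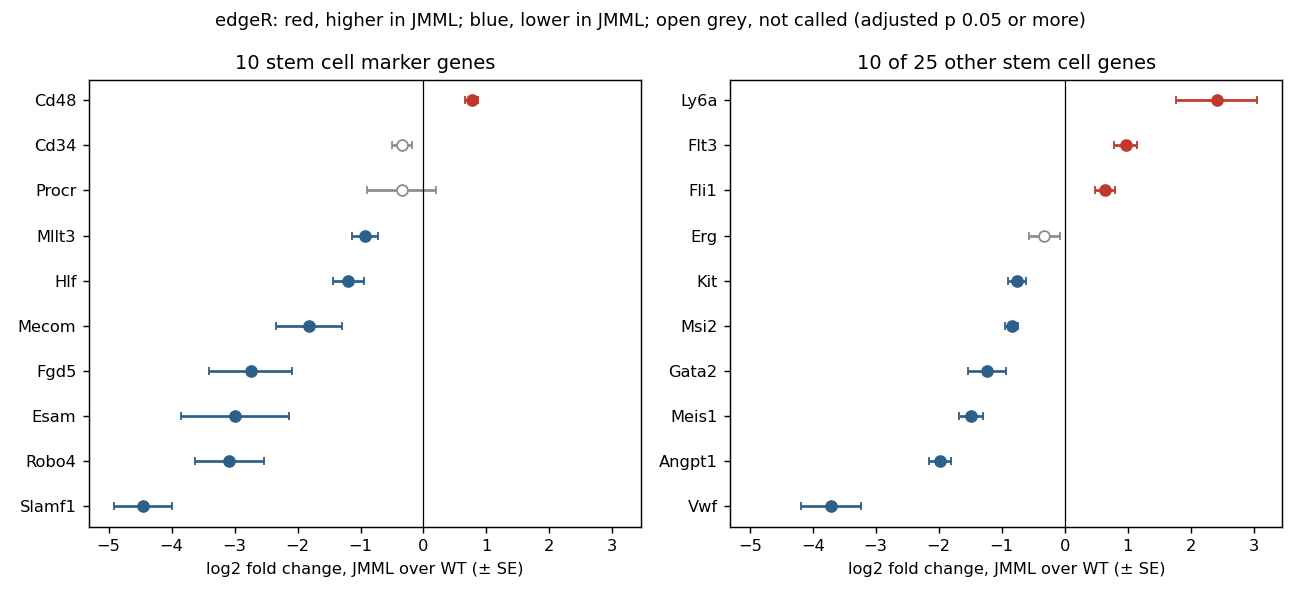
Log2 fold change of JMML over WT with ± 1 SE from edgeR (x axes) for the 10 members (left) and for 10 of the 25 other stem cell genes (right), sorted by value; red is higher in JMML, blue lower and open grey not called. Among the members Slamf1 is lowest at −4.45 and Cd48 alone is called higher at 0.76; among the others drawn Vwf is lowest at −3.71 and Ly6a is highest at 2.41.

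Per kilobase of exon, the order of mean levels in JMML was Cd48 (82.7 CPM per kb), Cd34 (6.71), Mllt3 (1.81), Hlf (0.568), Esam (0.520), Procr (0.304), Robo4 (0.250), Fgd5 (0.158), Slamf1 (0.0661) and Mecom (0.0458). In WT it was Cd48 (48.7 CPM per kb), Cd34 (8.51), Esam (4.15), Mllt3 (3.46), Robo4 (2.13), Slamf1 (1.45), Hlf (1.30), Fgd5 (1.06), Procr (0.388) and Mecom (0.163). Cd48 and Cd34 led in both groups, although in WT replicate 3 Cd34 (7.36 CPM per kb) was close to Esam (6.63). In JMML each neighbouring pair from Hlf down to Mecom differed by no more than the larger SD of the pair (n = 3 each), for example Hlf and Esam (SD 0.151 and 0.460). In WT the same held for Esam and Mllt3 (SD 2.15 and 0.253), Robo4 and Slamf1 (SD 0.751 and 0.769), Slamf1 and Hlf (SD 0.769 and 0.102), and Hlf and Fgd5 (SD 0.102 and 0.467). Together the 10 members summed to 172 to 185 CPM in JMML, against 206 to 218 CPM in WT, and Cd48 made up 50.6% to 58.4% of that sum in JMML, against 25.1% to 30.1% in WT.

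In the wider list of 25 other stem cell genes, 13 were lower and 3 were higher, beside 13.8% and 12.4% of all tested genes. This list had a median log2 fold change of −0.75. Vwf, the gene of von Willebrand factor, made by endothelium, megakaryocytes and platelet-biased stem cells, was lower at a log2 fold change of −3.71 ± 0.48 (SE, edgeR adjusted p = 0.00374). Angpt1 (−1.98 ± 0.17 SE), a ligand of the Tek receptor, Gata2 (−1.24 ± 0.30 SE) and Meis1 (−1.49 ± 0.19 SE), transcription factors of stem cells, and the RNA-binding protein gene Msi2 (−0.84 ± 0.10 SE) were lower too. Erg, an ETS factor of stem cells and endothelium, did not pass the test (−0.32 ± 0.25 SE), at 19.98, 22.2 and 25.2 CPM in JMML replicates 1, 2 and 3, against 21.6, 23.0 and 39.7 CPM in WT replicates 1, 2 and 3.

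Kit was lower in JMML as well, whereas Flt3 and Ly6a were higher. Kit, the stem cell factor receptor, carried by stem cells, progenitors and mast cells, had 118, 106 and 115 CPM in JMML replicates 1, 2 and 3, against 165, 228 and 177 CPM in WT replicates 1, 2 and 3, a smaller decrease (−0.75 ± 0.14 SE, edgeR adjusted p = 0.0107). Flt3, which marks multipotent progenitors past the stem cell stage, was higher, at 82.0, 79.5 and 56.3 CPM in JMML replicates 1, 2 and 3, against 37.7, 42.1 and 31.3 CPM in WT replicates 1, 2 and 3. Ly6a, which encodes the stem cell antigen Sca-1 and is also induced by interferon, had 1.95, 8.69 and 13.8 CPM in JMML replicates 1, 2 and 3, against 1.06, 1.69 and 1.86 CPM in WT replicates 1, 2 and 3. JMML replicate 1 was thus near the WT level of Ly6a while JMML replicate 3 was far above it. The third gene that was higher was Fli1, an ETS factor (0.64 ± 0.16 SE), named after its value was seen.

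In the list of 16 progenitor genes, 9 were higher and 3 were lower in JMML, beside 12.4% and 13.8% of all tested genes. This list had a median log2 fold change of 0.73. Ms4a3, a gene of granulocyte and monocyte progenitors (1.26 ± 0.11 SE), and Csf2rb, the shared receptor chain for GM-CSF and interleukin-3 (0.87 ± 0.11 SE), were higher. Il7r, the interleukin-7 receptor of lymphoid progenitors and T cells, was lower (−2.84 ± 0.38 SE), as were Cd27 (−1.79 ± 0.42 SE) and Cd38 (−1.77 ± 0.45 SE), which in mice are carried by stem cells as well as lymphocytes and were named after their values were seen.

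**Figure D5:**
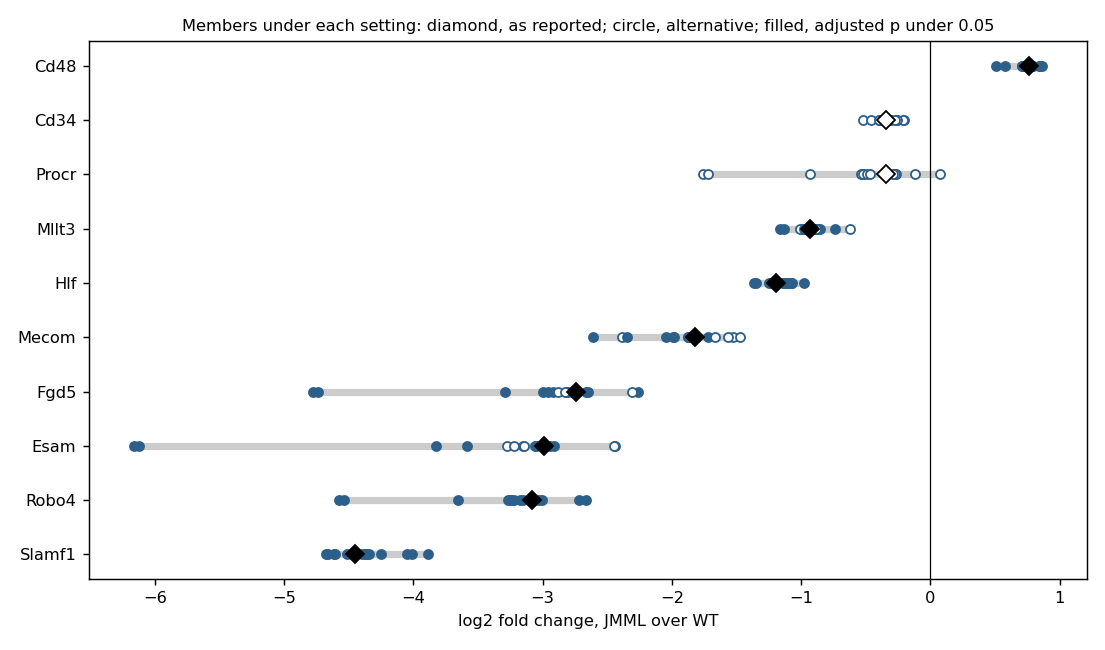
Log2 fold change of JMML over WT (x axis) for each member as reported (black diamonds) and under up to 17 alternative settings (blue circles), filled where the adjusted p was under 0.05. Slamf1, Robo4 and Cd48 are filled throughout and Cd34 is open throughout, whereas Mecom loses its call in 7 settings and Esam reaches −6.16.

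The count of 7 lower members rested on single libraries in part. It was 4 without JMML replicate 1, 7 without JMML replicate 2 and 6 without JMML replicate 3, and 4, 2 and 4 without WT replicates 1, 2 and 3, while the direction of every called member stayed the same. The share of all genes called lower, 13.8% with all libraries, fell in the same fits too, to 11%, 8.12% and 8.67% without JMML replicates 1, 2 and 3, and to 8.28%, 6.1% and 8.69% without WT replicates 1, 2 and 3. With the identifier letter as a covariate, which sets JMML replicate 3 alone against WT, 4 members were lower (Slamf1, Robo4, Esam and Fgd5), beside 6.91% of all genes, and with only the 4 M libraries 7 were lower, beside 6.44%. In these fits the lone JMML library is assumed to vary like the WT libraries, and with the covariate also like JMML replicates 1 and 2. Cd48 was called higher in every setting. With library totals alone as the scaling, the median of all genes shifted to −0.21 and 27.1% of calls were higher, in place of 47.4%; under that scaling 7 members were still lower and 1 higher, Cd48 at 0.575.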

How the data were processed

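The authors deposited raw counts per Ensembl gene for 6 libraries, whole numbers with no normalization; analysis started from these counts. Per the submitters' processing notes the build was GRCm38 and the tools named, without role or order, were STAR 2.5.3a, DESeq2 1.22.2, R 3.5.0, StringTie 1.3.3b, bcl2fastq 2.18.0.12 and Picard 2.0.1. Not given in the sources used here were the annotation release, the counter and its strand setting. Of counts from 1 to 20, 51.6% to 58.8% were even, depending on the library; if pairs were counted by mate, counts overstate fragments. Symbols, positions and exon lengths come from GENCODE vM21, which matched 45229 of 46078 identifiers, and promoter sequences from RefSeq on GRCm38.p6.

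The test was that of edgeR 4.0.16 under R 4.3.3 (filterByExpr, TMM, quasi-likelihood F test, group only). The SE was taken as the size of the log2 fold change over the root of F. The common biological coefficient of variation was 29.4%. The fit was tested on simulated counts with known changes. Alternatives used DESeq2 1.42.0, limma 3.58.1, other scalings and filters (none, or 50 counts in 3 libraries), the replicate number, the identifier letter, the M libraries alone, thinning to equal totals, removal of the exon length trend (loess span 0.5) and each library left out. Tables and figures were made with Python 3.11.15, pandas 2.3.3 and matplotlib 3.10.9.

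Members and lists were chosen with earlier results of these data known. All members are named; of each other list up to 4 genes with the smallest p and a few set genes are named, except some that are not reported here, and a few further genes were named after their values were seen. Mecom overlaps its antisense gene Mecomos by 81 exon bases and Cd34 overlaps Gm16897 by 148; Mecomos had at most 16 counts and Gm16897 at most 6 in any library. The symbol Cd58 matched no identifier. Promoter motifs were matched letter for letter on both strands.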

Additional observations from a re-analysis of the deposited data

How the results depend on the processing

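In 17 alternative settings no called member changed sign. The calls of Slamf1, Robo4 and Cd48 held in all 17, that of Hlf in 15, those of Mllt3 and Fgd5 in 13, that of Esam in 12 and that of Mecom in 10; Cd34 was called in none, and Procr in none of the 16 in which it was tested, at −1.76 (letter) to 0.07 (without JMML replicate 3), and −0.93 to 0.07 with 1 replicate left out. The 7 lower members became 4 with the identifier letter as a covariate, and leaving out 1 replicate at a time gave 2 to 7. The 4737 genes called became 2219 with the letter, 2310 with the M libraries alone and 2203 to 4003 with 1 replicate left out. With the replicate number as a block, 2809 genes and 5 members lower were called, Fgd5 (−2.88) and Esam (−3.27) losing their calls at folds no smaller than before. Same-numbered libraries did not deviate together (correlations of −0.19, 0.04 and −0.12 for numbers 1, 2 and 3), so the numbers were not taken as pairs; both libraries numbered 3 also share an identifier prefix of unstated meaning. Slamf1 minus Cd48, which scaling cannot change, stayed between −5.47 and −4.68 with the M libraries alone, thinning or 1 replicate left out. It was not computed for the other tests, filters, covariates or the length trend. The cause of the changes was not tested, but each fit without a replicate has fewer libraries. Thinning to the smallest total kept the calls of Mecom and Esam.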
